A study of Mus musculus with 87 samples.

Results

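The naive pluripotency genes examined here are 10 listed genes, Nanog, Esrrb, Klf2, Klf4, Klf5, Tfcp2l1, Tbx3, Prdm14, Zfp42 and Tcl1, read by gene symbol out of 26171 in each of 13 comparison tables. All 10 had an adjusted p in all 13 tables. The list was named for transcription factors, and 9 of its genes encode DNA-binding regulators, whereas Tcl1 encodes a coactivator of the kinase AKT that is itself a known target of the pluripotency network. The study sequenced polyadenylated RNA of 32 samples of the mouse embryonic stem cell (ESC) line 129-B13 and of neuronal precursors (NP) made from it, and 55 chromatin immunoprecipitation (ChIP) samples. The question the lines address is what the alternative exon 4 of Suz12, a core subunit of the Polycomb repressive complex PRC2 that trimethylates lysine 27 of histone H3 (H3K27me3), does to expression.

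Naive pluripotency is the state of the early epiblast that mouse ESC keep in culture. It is held by a network of transcription factors that feed on each other around Oct4 (encoded by Pou5f1) and Sox2, and the cytokine LIF sustains it through STAT3, with Klf4, Tfcp2l1 and other members among the genes downstream. On the way to neural fate the network is dismantled, and several of its genes carry Polycomb marks where they are silent.

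The ESC were grown in serum with LIF, and formed 8 groups: wild type (WT, 3 libraries), CSex4 with exon 4 made constitutive (2), Deltaex4 with exon 4 deleted from Suz12 (2), the full Suz12 knock-out (KO, 3), and that knock-out rescued with the long isoform (KO-L, 2), the short isoform (KO-S, 2), or either isoform expressed from the Rosa26 locus with the 3D mutation at position 196 (KO-L3D and KO-S3D, 2 each). NP were made from embryoid bodies given retinoic acid on day 4 and were harvested on day 8. There were 4 NP libraries of WT and 2 each of the exon 4 lines CSex4 and Deltaex4, the KO, and its rescues KO-S and KO-L. All 4 rescue lines have the knock-out as their background. The labels do not say whether a line is 1 clone or whether its samples are separate cultures, so p-values measure the spread between these samples, which may be technical. Reads per library were worked back from the deposited means, and libraries carry numbers given here, not the labels' numbers. A level is in reads per 1000000 reads of the library (RPM), which is not corrected for gene length and is therefore compared between samples and not between genes.

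Library totals lay between 23570194 and 47201666 reads. The targeted gene, Suz12, had 149.5 to 288.1 RPM in ESC WT and 45.1 to 93.3 in ESC KO, and 105.2 to 197.1 in NP WT against 41.9 and 43.9 in NP KO. The 2 libraries labelled KO-L3D had 67.3 and 96.1 Suz12 RPM, at or just above the KO range, and those of KO-S3D had 185.7 and 332.3. Summed over 5 ESC markers (Pou5f1, Sox2, Utf1, Dppa4 and Sall4), ESC libraries had 1384 to 2823 RPM and NP libraries 94.6 to 826. The 10 neuronal precursor markers summed to 35.3 to 484.8 in ESC and, in NP, to 487.2 to 1711 in WT, 1569 and 1662 in Deltaex4, 648 and 667 in KO-S, 518 and 520 in CSex4, 397.5 and 522 in KO-L, and 127.0 and 129.5 in KO. Both NP KO libraries and NP KO-L library 1 (397.5) thus lay within the ESC range for these markers. The top of that range, 484.8, was ESC CSex4 library 1. Some libraries stood apart. ESC WT library 3 had 169.7 RPM over 7 primitive endoderm markers against 11.8 and 14.0 in the other WT libraries, the 2 KO-S libraries had 239.8 and 338.7, and KO-S3D library 1 had 175.8 against 37.3 in library 2. Over 5 trophectoderm markers (among them Krt8 and Krt18, which other epithelia also express), CSex4 library 1, KO-L3D library 1 and KO-S3D library 1 had 1914, 1406 and 1748 against 615.2, 229.6 and 79.2 in their partners. NP WT library 1 had 487.2 over the neuronal precursor markers against 1590 to 1711 in the other 3. The 2 NP CSex4 libraries were more alike than any other pair of a group: 16.3% of genes differed between them at p under 0.05 by a chi-square test of the reads, against 38.8% or more in all other pairs. They differ by more than counting noise and are counted as 2 libraries, but the labels do not say whether they came from separate cultures. If they did not, the CSex4 side adds only technical spread to the standard errors and p-values of NP CSex4. Those also hold the spread between NP WT libraries 1 and 2, where 72.6% of genes differed by the same test.

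Wild-type NP kept little of the naive network. Nanog, a homeodomain factor at the centre of the network, had 400.5, 319.6 and 456 RPM in the 3 ESC WT libraries and 90.8, 38.9, 12.8 and 13.1 in the 4 NP WT libraries. Esrrb, an orphan nuclear receptor, had 566.2, 458.4 and 749.4 in ESC WT and 67.1, 28.7, 9.05 and 10.7 in NP WT. Each ESC library lay above each NP library for both genes. The mean ESC WT level exceeded the mean NP WT level 43.9-fold for Tcl1, 22.2-fold for Zfp42 (also called Rex1, a zinc finger protein used as a marker of naive cells), 20.5-fold for Esrrb, 11.2-fold for Klf5, 10.1-fold for both Nanog and Tfcp2l1, 6.85-fold for Prdm14, 5.64-fold for Klf2, 4.84-fold for Klf4 and 1.5-fold for Tbx3. For 9 of the 10 genes each ESC WT library was above each NP WT library, and 21.3% of all genes with a mean of at least 1 RPM had this order. The exception was Tbx3, a T-box repressor also active in endoderm, with 20.0, 20.7 and 45.2 in ESC WT and 30.1, 19.4, 14.2 and 12.5 in NP WT. In these bulk samples, fewer cells of a type and less RNA per cell cannot be told apart.

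NP WT library 1 held the highest NP WT value of all 10 genes. Between the highest and the lowest of the 4 NP WT libraries the ratio had a median of 7.05 over the 10 genes, against 1.66 over the 3 ESC WT libraries. The order in the first 2 NP WT libraries was opposite to that of the neuronal precursor markers, and the part of either in the other was not tested. The authors compared NP CSex4, Deltaex4 and KO with NP WT libraries 1 and 2, and set NP WT libraries 3 and 4 against NP KO, so that the high library 1 enters the first 3 comparisons only.

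**Figure D1:**
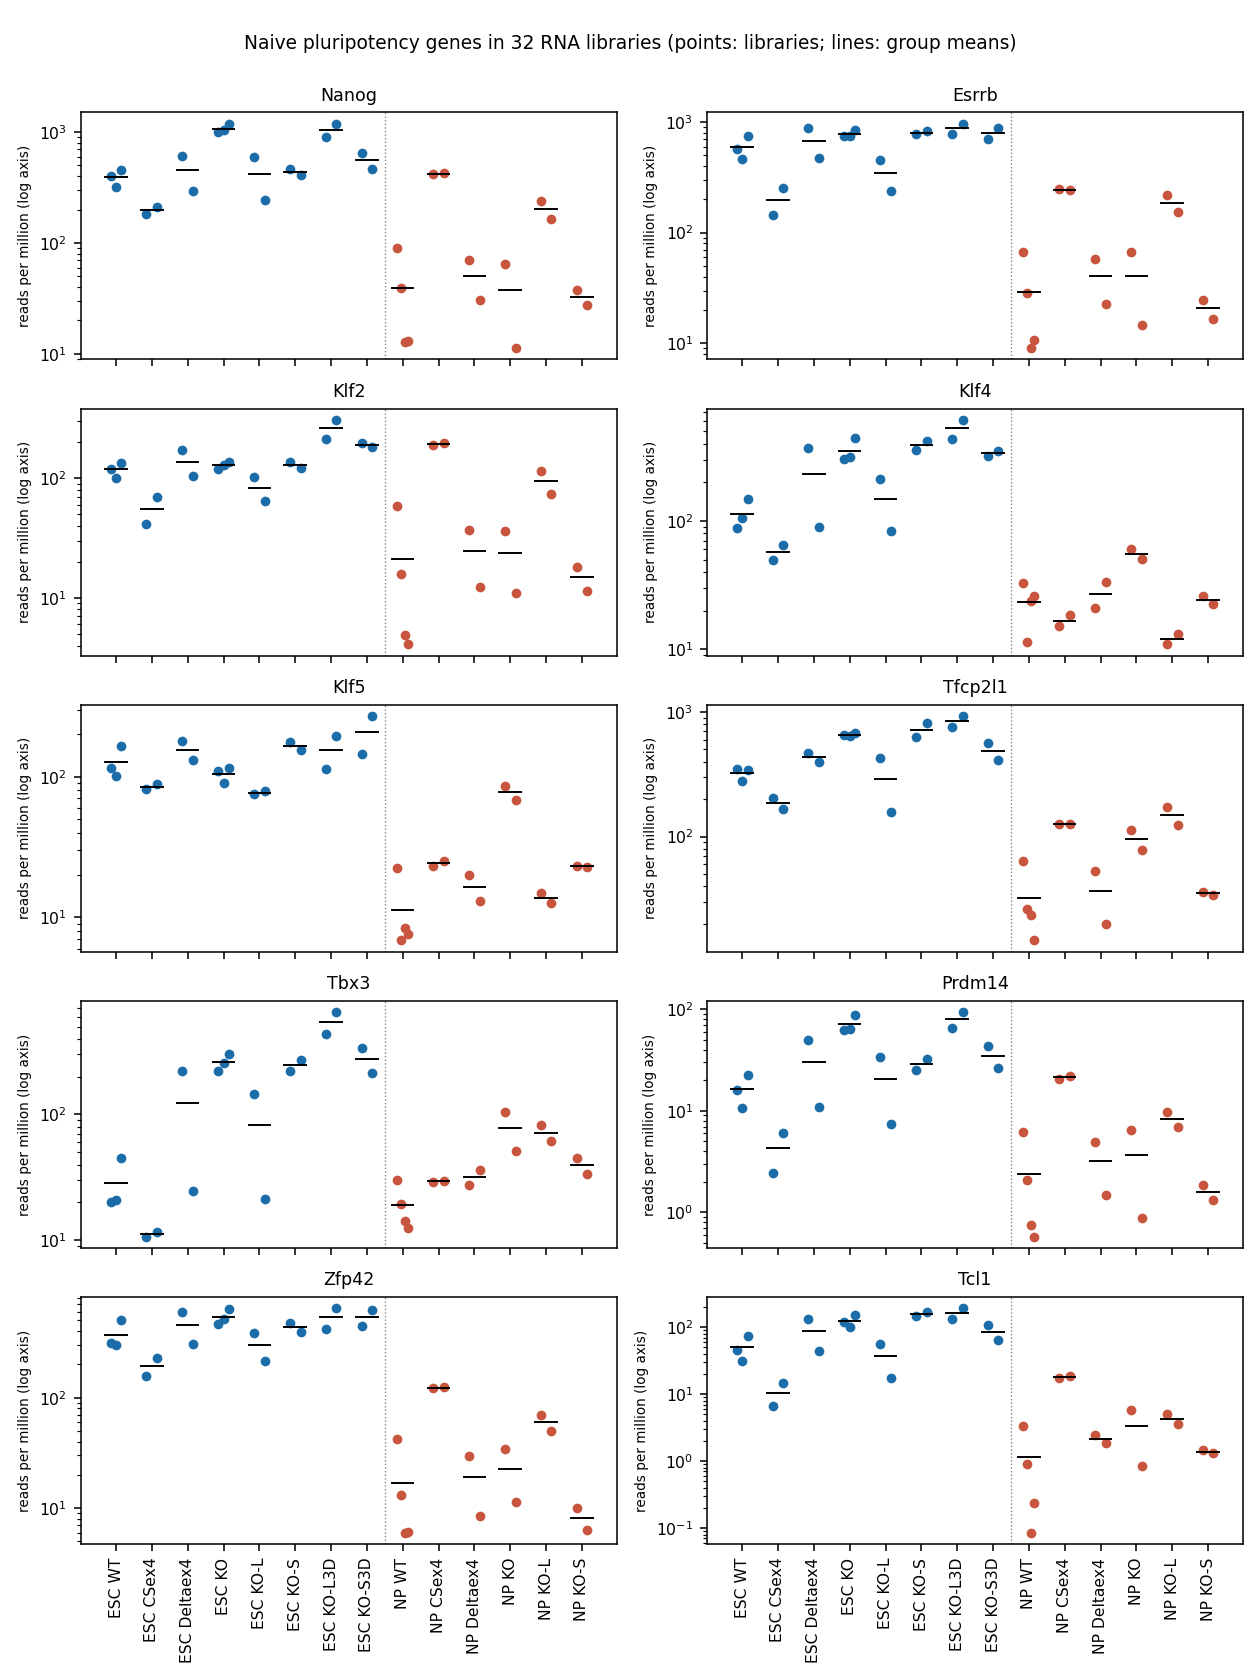
RPM (log axis) of the 10 genes in each of the 32 RNA libraries, by group; points are libraries, black lines group means, blue ESC and red NP. The 2 NP CSex4 libraries had 419 and 426 RPM for Nanog, within the range of ESC WT, and the 4 NP WT libraries had 12.8 to 90.8.

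With exon 4 made constitutive, 7 of the naive genes were lower in ESC and 7 were higher in NP. Of these, 5 were called in both: Nanog, Esrrb, Klf2, Prdm14 and Tcl1. In ESC, 7 of the 10 genes were lower in CSex4 than in WT in the authors' deposited table at adjusted p under 0.05 and none was higher, where 0.695% of all genes tested were lower and 1.72% higher. In NP, the authors' deposited table called 7 higher and none lower, against a background of 4.08% higher and 1.45% lower. The median log2 fold change of the 10 genes was -1.22 in ESC and 2.39 in NP, and that of all genes tested -0.01 and -0.04. Suz12 had 297.8 and 317.5 RPM in NP CSex4 against 171.9 and 197.1 in NP WT libraries 1 and 2. In ESC CSex4 it had 262.1 and 233.7, within the ESC WT range of 149.5 to 288.1. The part of the Suz12 level in the result was not tested.

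Tcl1 moved furthest in both. It had 6.61 and 14.5 RPM in the ESC CSex4 libraries against 45.4, 31.1 and 74.0 in WT, and 17.4 and 18.5 in NP CSex4 against 3.35 and 0.897 in the first pair of NP WT libraries. The groups did not overlap in either cell type. The authors' deposited tables gave Tcl1 a log2 fold change of -2.38 ± 0.48 (SE; adjusted p 0.000356) in ESC and 3.29 ± 0.51 (adjusted p 3.43e-08) in NP. Prdm14, a PR-domain protein that represses Fgf signalling genes and DNA methyltransferases in naive cells, had 2.46 and 6.06 in ESC CSex4 against 16.0, 10.7 and 22.8 in WT, and 20.8 and 22.0 in NP CSex4 against 6.22 and 2.09. Its log2 fold changes in the authors' deposited tables were -2.10 ± 0.54 (adjusted p 0.0101) and 2.51 ± 0.46 (adjusted p 6.21e-06).

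Nanog had 180.9 and 211.8 RPM in ESC CSex4, below all 3 WT libraries, and 418.8 and 426.1 in NP CSex4, above both NP WT libraries of the comparison. The NP CSex4 libraries thus had a higher Nanog level than the ESC CSex4 libraries and lay within the range of the ESC WT libraries. Klf2, a Krüppel-like factor, had 41.3 and 69.9 in ESC CSex4 and 188.3 and 197 in NP CSex4, the latter above every ESC WT library (99.7 to 134.8). In the authors' deposited tables Nanog had -1.06 ± 0.33 (adjusted p 0.0480) in ESC and 2.79 ± 0.35 (adjusted p 5.54e-12) in NP, and Klf2 had -1.20 ± 0.37 (adjusted p 0.0457) and 2.61 ± 0.41 (adjusted p 5.07e-08). Esrrb had 145.3 and 252.7 in ESC CSex4 and 245.7 and 242.5 in NP CSex4, and the authors' deposited tables gave -1.71 ± 0.38 (adjusted p 0.00152) and 2.44 ± 0.36 (adjusted p 5.75e-09).

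Zfp42 and Tfcp2l1, a Grainyhead-like factor induced by STAT3, rose in NP CSex4, by 2.35 ± 0.40 and 1.59 ± 0.37 in the authors' deposited table, and missed the threshold in the one for ESC, at -1.14 ± 0.37 (adjusted p 0.0652) and -0.84 ± 0.30 (adjusted p 0.116). Klf4 and Tbx3 were lower in ESC CSex4 (-1.23 ± 0.35 and -1.55 ± 0.41 in the authors' deposited table, adjusted p 0.0227 and 0.0134) and had -0.26 ± 0.41 and 0.25 ± 0.36 in NP, with adjusted p of 0.912 and 0.895. Klf4 had 15.1 and 18.3 RPM in NP CSex4 and 32.7 and 11.5 in the NP WT libraries, and Tbx3 29.2 and 29.7 against 30.1 and 19.4, so that both overlapped. Klf5 passed the threshold in neither authors' deposited table, with -0.70 ± 0.34 in ESC and 0.92 ± 0.44 in NP.

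The difference itself was tested with a z test on the deposited log2 fold changes and standard errors, adjusted over 14304 genes. For 8 of the 10 genes the CSex4 effect was lower in ESC than in NP, where 2.65% of all genes passed in this direction and 2.32% in the other. The difference, ESC minus NP, ran from -5.67 ± 0.70 for Tcl1 (adjusted p 3.30e-12) over -4.61 ± 0.71 for Prdm14 and -3.85 ± 0.48 for Nanog to -1.80 ± 0.55 for Tbx3 (adjusted p 0.0267). It was not called for Klf5 (-1.62 ± 0.56, adjusted p 0.0628) and Klf4 (-0.97 ± 0.54, adjusted p 0.395). Over the neuronal precursor markers, both NP CSex4 libraries (518 and 520 RPM) lay between the 2 libraries of their WT pair (487.2 and 1590), near the lower. Of these 10 markers, 3 were lower and none higher in the authors' deposited table. The ESC markers of the NP CSex4 libraries summed to 812.2 and 826 against 396.4 and 298.1, with 3 of 5 higher in the authors' deposited table. Both ESC CSex4 libraries lay above all WT libraries for the trophectoderm markers (1914 and 615.2 against 190.5 to 322.8, 3 of 5 called higher in the authors' deposited table). They also did for the neuronal precursor markers (484.8 and 253.5 against 77.7 to 184.1). None of those 10 was called in the authors' deposited table made with DESeq2. There 5 had an adjusted p and 1 an unadjusted p under 0.05. Of 6 germ cell markers, among them Dppa3, 5 were higher in NP CSex4 in the authors' deposited table, and their sum was 242.7 and 252.1 RPM against 82.6 and 39.2. The part of these in the result was not tested.

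All 10 genes had both ESC CSex4 libraries below every ESC WT library, an order that 17.7% of all genes had, and 8 had both NP CSex4 libraries above both NP WT libraries of the comparison, an order that 31.5% had. The number of calls was less stable. With standard errors multiplied by the robust SD of the statistic over all genes, 4 of the 7 ESC calls were left, and 7 in NP. Limma with a replicate block, in which libraries are compared within pairs, called none of the 10 genes, and none of all genes, in either cell type. With limma without the block on the worked-back reads, 3 of the 10 genes were called in ESC (Esrrb, Klf2 and Tcl1), and none once CSex4 library 1, WT library 1 or WT library 3 was left out. In NP, limma called 4 (Nanog, Esrrb, Klf2 and Tcl1), 8 without NP WT library 1, and none without NP WT library 2 or without either CSex4 library. The ESC and NP effects differed by limma for 7 genes, and for 4 to 8 when 1 library at a time was left out, the lowest count being that without ESC CSex4 library 1 or NP WT library 2.

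**Figure D2:**
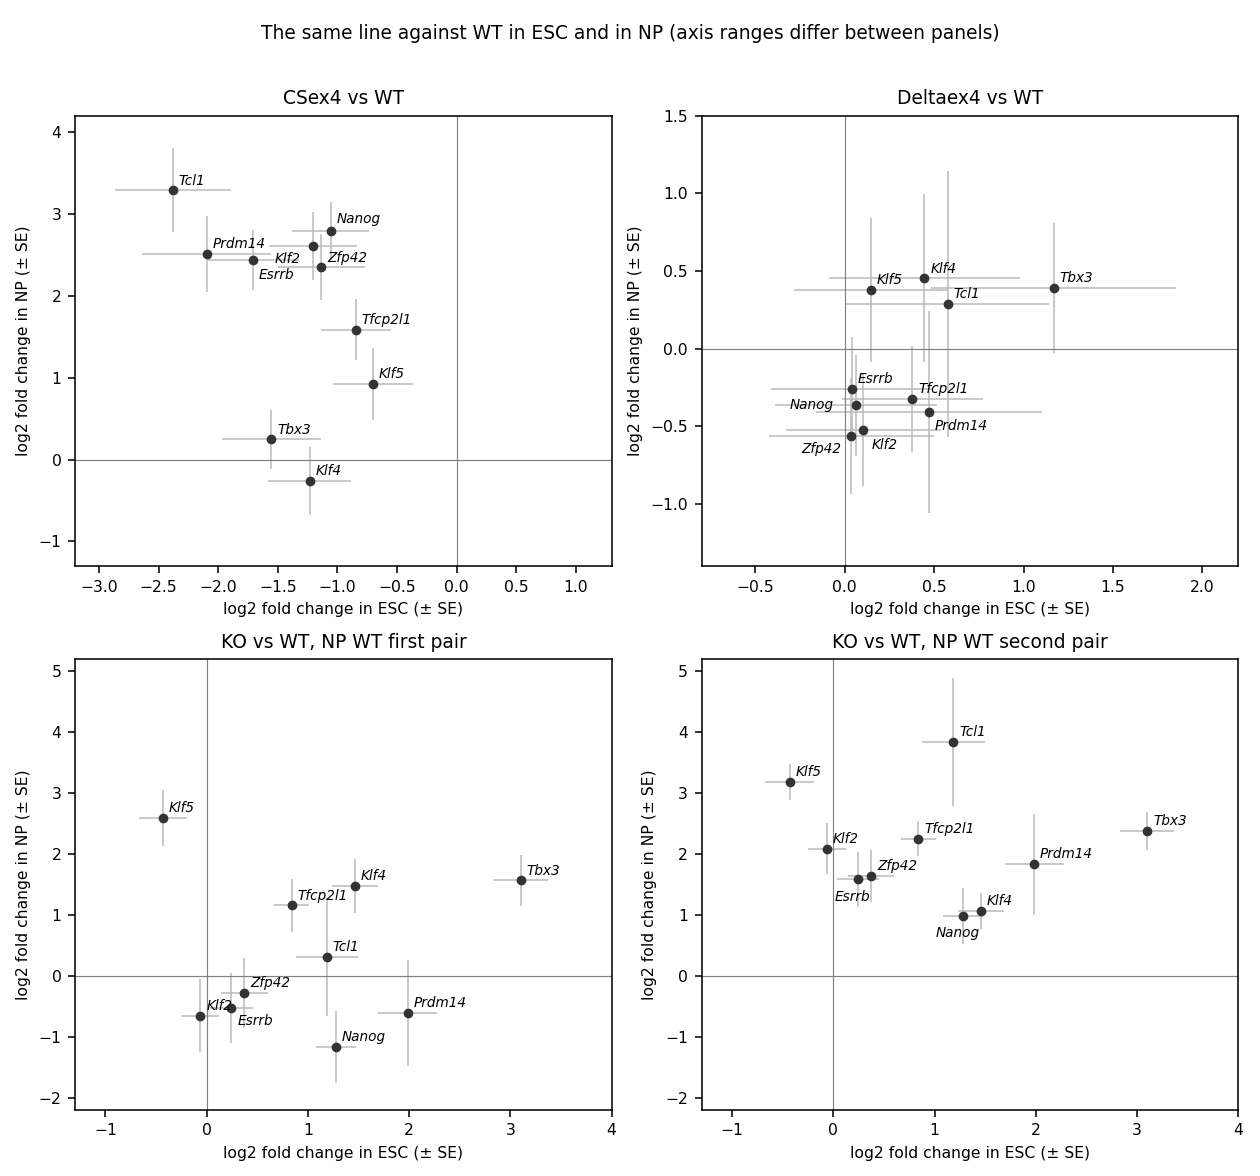
Log2 fold change with its standard error in ESC (x axis) and in NP (y axis) from the authors' deposited tables, for CSex4, Deltaex4 and KO against WT, the KO once with each pair of NP WT libraries (sign of the WT vs KO table turned). In the CSex4 panel 9 of 10 genes lie at the upper left, below 0 in ESC and above 0 in NP; Klf4 is below 0 in both.

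Deleting exon 4 gave no call among the 10 genes in either cell type. Neither ESC nor NP had a member at an unadjusted p under 0.05 in the authors' deposited tables made with DESeq2, limma called none, and the background was 0% in each direction in ESC and 0.0289% higher and 0.052% lower in NP. The 2 ESC Deltaex4 libraries were unlike each other. Tbx3 had 220.9 and 24.5 RPM in them, Prdm14 49.4 and 10.9, Klf4 370.2 and 89.2 and Nanog 615.0 and 296.7. Library 1 was the higher for all 10 genes, while library 2 lay within or below the range of the 3 WT libraries for 9 of the 10. Suz12 was 77.5 in library 1 and 130.7 in library 2. In the authors' deposited table the log2 fold change was 1.17 ± 0.68 for Tbx3 and 0.04 ± 0.45 for Esrrb. In NP Deltaex4, Nanog had 69.8 and 30.3 against 90.8 and 38.9 in WT, and all 10 genes overlapped with WT. The difference of the Deltaex4 effect, ESC minus NP, passed for none of the 10 genes in the z test (0 at an unadjusted p under 0.05; background 0.0071% above 0 and 0% below) or by limma; its 95% interval for Nanog ran from -0.66 to 1.52 and for Tbx3 from -0.79 to 2.35, so the libraries do not show that the effects were alike.

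**Figure D3:**
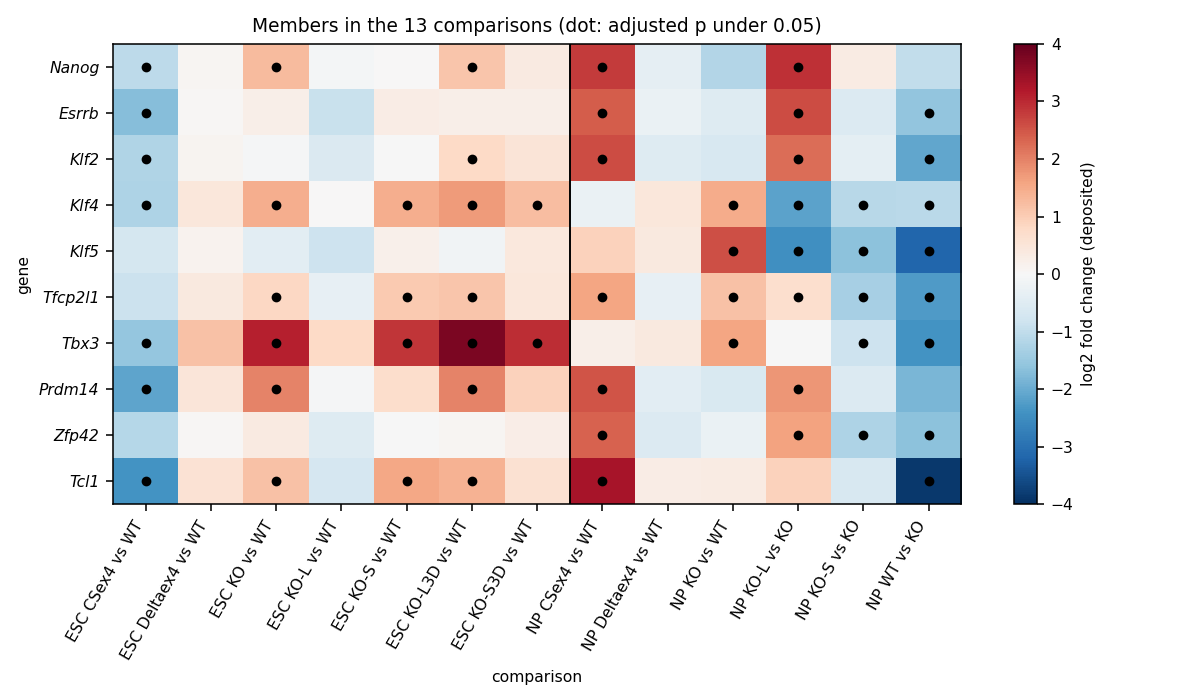
Log2 fold change of the 10 genes in the 13 comparisons from the authors' deposited tables (colour, first-named group over second), with a dot where the adjusted p was under 0.05; ESC comparisons are left of the line, NP comparisons right. Tbx3 is dotted in ESC KO, KO-S, KO-L3D and KO-S3D, and neither Deltaex4 column has a dot. Comparisons side by side share WT or KO libraries.

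Loss of Suz12 raised 6 of the 10 genes in ESC and lowered none, in the authors' deposited table, where 11% of all genes tested were higher and 7.27% lower. Tbx3 had the largest change: 223, 258 and 301.2 RPM in the 3 KO libraries against 20.0, 20.7 and 45.2 in WT, and a log2 fold change of 3.10 ± 0.27 (adjusted p 2.38e-28) in the authors' deposited table. Prdm14 had 63.0, 64.6 and 88.3 in KO and rose by 1.98 ± 0.29 (adjusted p 7.02e-10, authors' deposited table). For both genes the KO and WT libraries were far apart.

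Nanog had 998, 1044 and 1176 RPM in ESC KO, and Klf4, a Krüppel-like factor downstream of STAT3, had 303.8, 312.6 and 440.3 against 88.0, 104.6 and 148.7 in WT. The authors' deposited table gave 1.28 ± 0.20 for Nanog, 1.46 ± 0.23 for Klf4, 1.19 ± 0.31 for Tcl1 and 0.84 ± 0.17 for Tfcp2l1, at adjusted p between 4.20e-09 and 0.00157. Esrrb (0.24 ± 0.21), Zfp42 (0.37 ± 0.23), Klf2 (-0.06 ± 0.19) and Klf5 (-0.43 ± 0.24) did not pass there. By limma 5 of the 10 genes were higher, all of the above except Tcl1, and 2 when KO library 1, 2 or 3 or WT library 1 or 2 was left out; without WT library 3, which had high primitive endoderm markers, 4 were.

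In NP, the genes that changed with the knock-out were partly others. Klf5, a Krüppel-like factor of naive ESC and trophectoderm, had 86.2 and 68.5 RPM in NP KO, 22.4 and 6.85 in the first pair of WT libraries and 8.35 and 7.64 in the second. Tbx3 had 104.2 and 51.7 in KO, and Klf4 59.9 and 50.9 against 32.7 and 11.5 in the first WT pair. Against that pair, 4 genes were higher and none lower in the authors' deposited table (background 11.6% higher, 9.85% lower): Klf5 2.59 ± 0.46 (adjusted p 4.44e-07), Tbx3 1.57 ± 0.42, Klf4 1.47 ± 0.44 and Tfcp2l1 1.16 ± 0.43 (adjusted p 0.0353). The NP KO libraries were low in the neuronal precursor markers (127 and 129.5 RPM, 9 of 10 called lower in the authors' deposited table) and had 1637 and 1668 over the trophectoderm markers against 738.4 and 305.2 in their WT pair, with 4 of the 5 called higher in the authors' deposited table. Over the 7 primitive endoderm markers they had 591.3 and 867.4 against 560.6 and 188.2, with 3 called higher in the authors' deposited table. Their part in the result was not tested. By limma 3 genes were higher, Klf4, Klf5 and Tbx3, and without NP KO library 1 Nanog was called lower beside them. None of the 4 passed once the deposited standard errors were multiplied by the robust SD of the statistic over all genes.

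The other NP comparison has the same KO libraries and the second pair of WT libraries, and is given by the authors as WT over KO. There 8 of the 10 genes were lower in WT and none higher in the authors' deposited table (background 17.3% lower and 15.6% higher). The values were -3.85 ± 1.05 for Tcl1, -3.18 ± 0.29 for Klf5, -2.38 ± 0.31 for Tbx3, -2.26 ± 0.28 for Tfcp2l1, -2.09 ± 0.42 for Klf2, -1.64 ± 0.43 for Zfp42, -1.59 ± 0.45 for Esrrb and -1.06 ± 0.29 for Klf4 in the authors' deposited table (adjusted p between 1.60e-25 and 0.00248). The reads behind Tcl1 were few, 4 and 7 in the 2 WT libraries. Klf2 had 36.4 and 10.9 RPM in KO, 59.0 and 15.9 in the first WT pair and 4.87 and 4.09 in the second, so that KO overlapped the first pair and lay above both libraries of the second. Klf5, Tbx3, Klf4 and Tfcp2l1 were higher in KO than in WT in both authors' deposited tables. For Nanog, Esrrb, Klf2, Prdm14 and Zfp42 the estimate for KO was below WT in the first comparison and above it in the second. None of these genes passed the threshold in the first comparison, and Nanog and Prdm14 passed in neither. The count of genes lower in WT in the second comparison was 3 with standard errors multiplied by the robust SD. Over all 16118 genes tested by limma, 4382 were lower in WT and 3960 higher. By limma 7 were lower in WT, 9 without NP KO library 2, and 4 without NP KO library 1 or either WT library.

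The KO effect differed between ESC and NP for 4 of the 10 genes with the first NP WT pair. It was larger in ESC for Prdm14 (difference 2.60 ± 0.92, adjusted p 0.0364), Nanog (2.45 ± 0.63, adjusted p 0.00157) and Tbx3 (1.53 ± 0.50, adjusted p 0.0209), and larger in NP for Klf5 (-3.02 ± 0.52, adjusted p 3.53e-07), where 7.97% of all genes had a difference above 0 and 6.37% below. With the second NP WT pair, none was larger in ESC and 5 were larger in NP, which were Esrrb, Klf2, Klf5, Tfcp2l1 and Zfp42. The shares above are those of the first pair. The share of all genes that differed with the second pair is not given here, so these counts stand without a background. By limma with the first pair, 2 differed, Nanog and Klf5. The count was 1 without NP KO library 2 or NP WT library 1, 3 without NP WT library 2 and 4 without NP KO library 1; Klf5 was among them each time. None of the 4 passed with standard errors multiplied by the robust SD.

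With the long isoform restored in ESC, no gene of the 10 passed the threshold against WT, which does not show equal levels. In ESC KO-L the authors' deposited table made with DESeq2 had no call among them (2 at an unadjusted p under 0.05, none by limma), where 1.46% of all genes were higher and 0.771% lower. The 2 libraries were unlike each other here too, with 144.2 and 21.4 RPM for Tbx3, 594.1 and 245.4 for Nanog and 34.1 and 7.34 for Prdm14. Library 1 lay between KO and WT for Tbx3 and Nanog. Library 2 was below the lowest WT library for all of the 10 genes except Tbx3. The standard errors of Tbx3 (0.79 ± 1.40), Prdm14 (-0.05 ± 1.25) and Tcl1 (-0.68 ± 1.16) in the authors' deposited table were wide. Klf5, with 74.9 and 78.6 RPM, and Esrrb, with 452.3 and 239.4, lay below every WT library, at -0.82 ± 0.29 and -0.90 ± 0.35 in the authors' deposited table (adjusted p 0.139 and 0.221).

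With the short isoform, 4 of the 10 genes stayed above WT in the authors' deposited table (background 4.28% higher, 3.63% lower). Tbx3 had 222.8 and 271.4 RPM in KO-S, Klf4 353.4 and 420.1, and Tcl1 146.3 and 167.7, each above every WT library. The log2 fold changes against WT were 2.84 ± 0.33 for Tbx3 (adjusted p 9.06e-15), 1.55 ± 0.34 for Tcl1, 1.47 ± 0.28 for Klf4 and 1.05 ± 0.27 for Tfcp2l1 in the authors' deposited table. Nanog, with 461.9 and 407.8 RPM, had 0.03 ± 0.26. By limma 3 were called, 4 without WT library 3, and none without either KO-S library or WT library 1 or 2. WT library 3 and both KO-S libraries had high primitive endoderm markers, whose part in the result was not tested.

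The libraries labelled KO-L3D, in which the long isoform carries the 3D mutation, had 7 of the 10 genes higher than WT in the authors' deposited table (background 8.22% higher, 10.1% lower). Tbx3 had 437.1 and 649.9 RPM in them, Nanog 895.9 and 1191, Prdm14 66.1 and 93.6 and Klf2 214.1 and 307.3. Tbx3 at 3.78 ± 0.28 (adjusted p 1.54e-37), Prdm14 at 1.99 ± 0.32, Klf4 at 1.71 ± 0.28, Tcl1 at 1.38 ± 0.30, Nanog and Tfcp2l1 both at 1.10 ± 0.27 and Klf2 at 0.81 ± 0.28 (adjusted p 0.0300) were the called genes of the authors' deposited table. By limma 7 were called, 1 without KO-L3D library 2, 4 without WT library 1 and 3 without WT library 2. With standard errors multiplied by the robust SD, 1 of the 7 was left. Over all 15146 genes tested by limma, 2708 were higher in KO-L3D than in WT and 3242 lower. In KO-S3D, 2 genes were higher in the authors' deposited table (background 2.05% higher, 1.18% lower), Tbx3 at 2.96 ± 0.36 and Klf4 at 1.24 ± 0.36 (adjusted p 0.0261). Tbx3 had 340.3 and 214.1 RPM in KO-S3D. By limma the same 2 were called, 1 without either KO-S3D library or WT library 1 or 2, and none of all genes with a replicate block.

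Set against the unmutated isoform, the 3D mutation went with higher Klf4 (1.69 ± 0.47, adjusted p 0.0130), Tfcp2l1 (1.42 ± 0.45, adjusted p 0.0402) and Klf2 (1.38 ± 0.43, adjusted p 0.0339) in the long isoform, in a z test in which 1.76% of all genes were higher and 3.12% lower. The 2 tables share their WT libraries, and Suz12 had 67.3 and 96.1 RPM in KO-L3D and 108.7 and 122.6 in KO-L, whose part in the result was not tested. None passed with standard errors multiplied by the robust SD. Over all 16014 genes tested by limma with every library, 2860 were higher and 3368 lower in KO-L3D than in KO-L. By limma 6 differed, none without KO-L library 2, 7 without KO-L library 1 and 1 without KO-L3D library 2. For the short isoform none of the 10 genes differed between KO-S3D and KO-S in the z test (0 at an unadjusted p under 0.05; limma 0), where 0.504% of all genes were higher and 0.228% lower. The 95% interval of that difference ran from -0.85 to 1.07 for Tbx3 and from -1.92 to 0.06 for Tcl1, so equal levels were not shown.

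**Figure D4:**
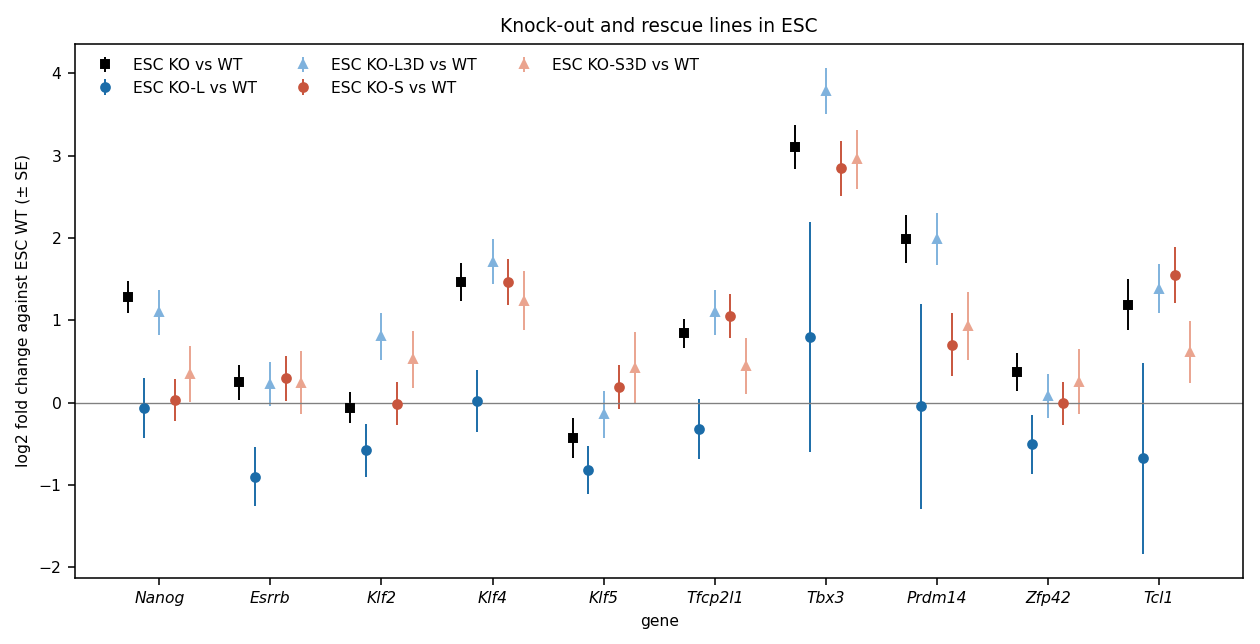
Log2 fold change against ESC WT with its standard error for the knock-out (square), the rescues with unmutated isoforms (circles) and those with the 3D mutation (triangles), from the authors' deposited tables, which share the WT libraries. Tbx3 is at 3.10, 3.78, 2.84 and 2.96 in KO, KO-L3D, KO-S and KO-S3D and at 0.79 with a wide error in KO-L.

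In NP the long isoform split the 10 genes. Against NP KO, the authors' deposited table had 6 of them higher in KO-L, and 2 lower (background 10.9% higher, 13.8% lower). Nanog had 241.1 and 164.4 RPM in KO-L and 64.7 and 11.2 in KO, and Esrrb 218.7 and 152.4 against 66.2 and 14.7. The log2 fold changes in the authors' deposited table were 2.93 ± 0.82 for Nanog, 2.59 ± 0.69 for Esrrb, 2.24 ± 0.26 for Klf2, 1.78 ± 0.54 for Prdm14, 1.61 ± 0.28 for Zfp42 and 0.68 ± 0.19 for Tfcp2l1, at adjusted p between 1.65e-16 and 0.00574. Klf5 (14.9 and 12.6 RPM) and Klf4 (10.9 and 13.2) were lower than in KO, at -2.44 ± 0.23 and -2.15 ± 0.25 in the authors' deposited table. Nanog and Esrrb were higher in these 2 libraries than in all 4 NP WT libraries. Limma called 3 higher and 2 lower, Klf4 and Klf5 being the latter; without NP KO library 1 the count was 6 and 2, without NP KO library 2 it was 1 and 2, and without KO-L library 1 none and 2.

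With the short isoform no gene of the 10 was above NP KO and 5 were below in the authors' deposited table (background 16.4% higher, 18% lower). Klf5 had 23.3 and 22.7 RPM in KO-S, and fell by 1.66 ± 0.20 on the log2 scale in the authors' deposited table. Tfcp2l1 (-1.34 ± 0.19), Zfp42 (-1.24 ± 0.31), Klf4 (-1.11 ± 0.20) and Tbx3 (-0.83 ± 0.21) were the other genes lower there. Nanog had 37.5 and 27.3 RPM, between the 2 KO libraries. Limma called 3 lower, and none without NP KO library 1 or KO-S library 1, 2 without NP KO library 2 and 1 without KO-S library 2. Both NP rescues had higher sums of the neuronal precursor markers than KO. Of the 10 markers, 8 were called higher and 1 lower in KO-L in the authors' deposited table. The lower one was Sox1, with 3.14 and 3.82 RPM in KO-L against 11.1 and 23.7 in KO. In KO-S, 10 of 10 were called higher in the authors' deposited table. In KO-L, 6 of 7 primitive endoderm markers were lower than in KO and none higher in the authors' deposited table. Of 5 trophectoderm markers, 3 were lower and 1 higher there. For KO-S 7 and 4 were lower and none higher in the authors' deposited table. Of the 5 ESC markers 4 were higher in KO-L in the authors' deposited table, and their sums were 655 and 445.4 RPM there, against 252 and 94.6 for KO and 227.7 and 189.7 for KO-S. Their part in the result was not tested. With standard errors multiplied by the robust SD, 2 of the 10 genes were higher and 2 lower in KO-L, and 1 was lower in KO-S.

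The effect of restoring an isoform to the knock-out was also compared between the cell types. For KO-L, 6 of the 10 genes differed: Nanog (-4.27 ± 0.92), Esrrb (-3.74 ± 0.81), Klf2 (-2.76 ± 0.45), Zfp42 (-2.50 ± 0.51) and Tfcp2l1 (-1.85 ± 0.44) were lower in ESC than in NP, and Klf5 (2.05 ± 0.44) was higher. The background was 4.07% above 0 and 2.8% below. Nanog moved by -1.35 in ESC and 2.93 in NP, taking the ESC effect as the difference of the 2 deposited tables against WT, which share the WT libraries. For KO-S, Klf5 (2.28 ± 0.41, adjusted p 3.93e-06) and Tfcp2l1 (1.55 ± 0.37, adjusted p 0.00127) were higher in ESC than in NP, with 4.39% of all genes above 0 and 4.04% below. With standard errors multiplied by the robust SD, 1 gene differed for KO-L and none for KO-S. By limma 8 genes differed for KO-L (3 without ESC KO-L library 2, NP KO library 2 or NP KO-L library 1), and 1, Klf5, for KO-S (2 without NP KO library 1).

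Genes of the same pathway were read from lists fixed together with the 10 genes. Their counts are to be read against the shares of all genes called, which were 1.72% higher and 0.695% lower in ESC CSex4, 11% and 7.27% in ESC KO, 4.08% and 1.45% in NP CSex4, 11.6% and 9.85% in NP KO, 10.9% and 13.8% in NP KO-L and 16.4% and 18% in NP KO-S. Of 10 other genes of the naive state (Dppa2, Dppa3, Dppa4, Dppa5a, Fbxo15, Gdf3, Nr0b1, Nr5a2, Tdh and Fgf4), 9 were higher and none lower in NP CSex4 in the authors' deposited table, with Nr0b1, an orphan nuclear receptor, at 3.68 and Dppa2, a chromatin regulator of early embryos, at 3.32. In ESC CSex4 1 was lower, Nr0b1 at -1.71, and none higher by the authors' deposited table. In NP KO-L 6 were higher than in KO and none lower, and in NP KO-S 5 were lower and none higher, in the authors' deposited tables. The ESC KO changed 3 of them, 2 upward and 1 downward, by the authors' deposited table. The NP KO against the first WT pair changed 2, 1 in each direction, by the authors' deposited table. These counts were near those shares. Against the second WT pair, 6 of the 10 were lower in WT than in KO and none higher in the authors' deposited table. There 17.3% of all genes were lower and 15.6% higher.

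Of the 3 core factors Pou5f1, Sox2 and Sall4, none passed in ESC CSex4 or ESC KO in the authors' deposited tables made with DESeq2 (1 at an unadjusted p under 0.05 in each). Pou5f1 had 641.7 and 858.7 RPM in ESC CSex4 against 858.4, 909.4 and 973.9 in WT, and 245.3 and 249.1 in NP CSex4 against 68.8 and 26.2. Its log2 fold change in NP CSex4 was 2.50 in the authors' deposited table (adjusted p 5.75e-09). Of 10 genes of the LIF and STAT3 pathway, the authors' deposited tables made with DESeq2 called none in ESC CSex4 (3 at an unadjusted p under 0.05) or NP CSex4 (1), 2 higher and 2 lower in ESC KO and 4 higher and 1 lower in NP KO. The 4 higher in NP KO were the cytokine gene Lif (1.83), its receptor gene Lifr (1.47), Il6st, which encodes the shared receptor subunit (0.94), and Socs3, the feedback inhibitor (1.06), by the authors' deposited table. In NP KO-L and KO-S against KO, 6 of the 10 were lower in each authors' deposited table, Lifr at -1.93 and -1.90 among them, while 1 and 3 were higher.

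Genes that act in the exit from the naive state (Tcf7l1, Etv4, Etv5, Zfp706, Flcn, Fnip1, Fnip2 and Rbpj) had 3 of 8 lower and none higher in ESC KO and in ESC KO-L3D (10.1% of all genes lower), 2 of 8 higher and none lower in NP CSex4, 3 higher and none lower in NP KO-L, and 2 higher and 3 lower in NP KO-S in the authors' deposited tables. Of 8 formative and primed genes (Fgf5, Otx2, Pou3f1, Dnmt3a, Dnmt3b, Sox3, Zic2 and Lef1), 1 was higher in ESC CSex4 (Pou3f1, 1.58), 3 were higher in ESC KO-L (1.46% of all genes), 5 were lower in ESC KO-S (3.63%) and 3 in ESC KO-L3D, 2 were higher and 1 lower in ESC KO, and 4 were higher and 2 lower in NP KO-S in the authors' deposited tables. None of the 8 passed in NP CSex4 in the authors' deposited table made with DESeq2 (0 at an unadjusted p under 0.05).

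Among the 10 genes, Zfp42 and Klf2 had 13 log2 fold changes nearest to the members' median profile, and Klf4, Klf5 and Tbx3 the farthest. The root mean square distance over the 13 comparisons was 0.44 for Zfp42, 0.49 for Klf2, 0.50 for Tfcp2l1, 0.53 for Prdm14 and 0.57 for Esrrb, and 1.38 for Klf4, 1.51 for Klf5 and 1.64 for Tbx3. Of 11290 genes with a mean of at least 50 in all tables, those near it that are not on the list included Rpp25 (0.47), Alpl (0.51), Bin2 (0.51) and Gm6083 (0.53). Alpl encodes the tissue-nonspecific alkaline phosphatase whose staining marks ESC colonies, and Rpp25 a subunit of RNase P. Several comparisons share libraries, so the 13 values of a gene are not independent.

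The deposited region lists, which come from DiffBind on Suz12 and on H3K27me3 ChIP and do not state which groups were compared or the direction, hold regions at 4 of the 10 genes: Esrrb, Klf4, Tbx3 and Prdm14. For comparison, 11.8% of 21896 protein-coding genes had a Suz12 region, and 22.3% an H3K27me3 region, within 2500 bases of the gene. Tbx3 had the most, with 3 Suz12 regions on chromosome 5 (119656151 to 119675099, 119679845 to 119681978 and 119682207 to 119688137) and 2 H3K27me3 regions (119653582 to 119679282 and 119679787 to 119691129) that reach past both of its ends. At Prdm14 a Suz12 region (chromosome 1, 13124398 to 13127688) lay inside an H3K27me3 region (13123526 to 13130058) at the gene's end with the higher coordinate. The Klf4 regions (chromosome 4, Suz12 55530071 to 55532287 and H3K27me3 55529767 to 55532393) lay within the gene body. At Esrrb a Suz12 region (chromosome 12, 86420889 to 86423925) lay inside an H3K27me3 region (86418111 to 86426509), and a second H3K27me3 region ran from 86399642 to 86402914. The submitters' processing notes name mm10, and gene positions are those of RefSeq on GRCm38.p6, the same assembly. Of these 4 genes, Klf4, Tbx3 and Prdm14 were higher in ESC KO in the authors' deposited table and Esrrb was not; of the 6 with no region within 10000 bases, Nanog, Tfcp2l1 and Tcl1 were higher. Over all protein-coding genes, 28.1% of those with a Suz12 region and 8.56% of those without were higher in ESC KO.

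**Figure D5:**
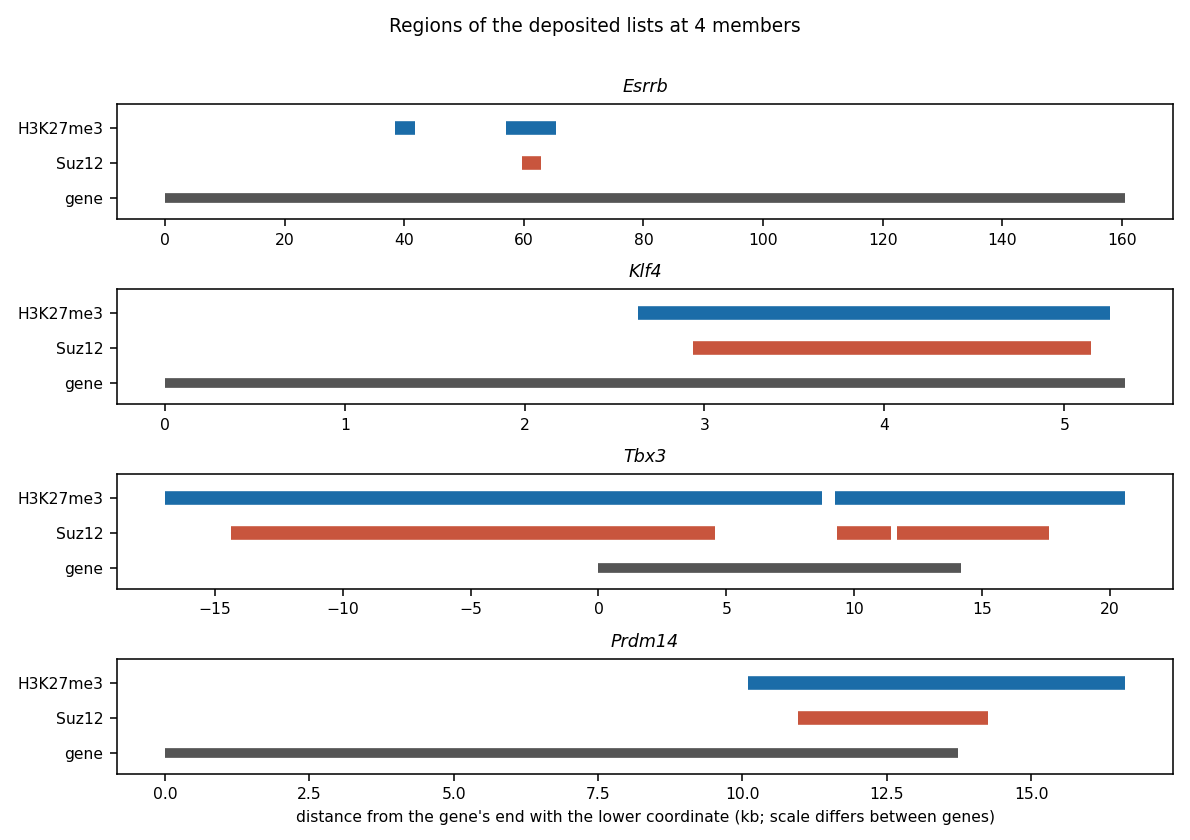
Suz12 (red) and H3K27me3 (blue) regions of the deposited lists and the gene body (grey) at Esrrb, Klf4, Tbx3 and Prdm14, by distance in kb from the gene's end with the lower coordinate; the scale differs between genes. The Tbx3 regions reach past both ends of the gene, and the Esrrb regions are internal to it.

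Promoters were read from RefSeq (GRCm38.p6) as the 250 bases before a transcript start; 7 of the 10 genes had an entry, with 9 starts. Esrrb is shown because 1 of its 2 starts lies in the regions and the other does not, Klf4 because its regions end just inside the gene, and Nanog and Zfp42 because they hold an octamer, the motif that Oct4 binds. Capitals mark matches, on either strand, to AAGGTCA (the ESRRB motif), GGGNGGG (a core of KLF and SP sites), TTTGCAT (the octamer) or TCAAAG (a TCF and LEF motif); overlapping matches run together. All sequences are given 5′ to 3′ on the strand of the gene.
Esrrb, first start, chr12:86360867-86361116 (plus strand): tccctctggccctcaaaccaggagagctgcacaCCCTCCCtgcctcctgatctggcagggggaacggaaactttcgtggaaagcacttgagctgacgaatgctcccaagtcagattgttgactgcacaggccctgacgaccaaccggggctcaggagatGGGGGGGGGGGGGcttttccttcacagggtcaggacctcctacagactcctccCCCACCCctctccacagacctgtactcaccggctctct
Esrrb, second start, chr12:86421394-86421643 (plus strand): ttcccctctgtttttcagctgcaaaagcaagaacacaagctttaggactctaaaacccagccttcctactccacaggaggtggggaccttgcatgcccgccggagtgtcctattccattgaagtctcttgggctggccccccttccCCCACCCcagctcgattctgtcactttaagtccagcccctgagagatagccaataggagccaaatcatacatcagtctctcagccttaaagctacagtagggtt
Klf4, chr4:55532476-55532725 (minus strand): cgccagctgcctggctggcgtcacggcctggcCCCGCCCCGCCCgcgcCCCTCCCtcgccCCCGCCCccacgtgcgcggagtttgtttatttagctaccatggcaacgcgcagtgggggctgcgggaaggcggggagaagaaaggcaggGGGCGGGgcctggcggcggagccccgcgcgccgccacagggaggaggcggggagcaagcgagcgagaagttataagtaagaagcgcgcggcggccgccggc
Nanog, first start, chr6:122707239-122707488 (plus strand): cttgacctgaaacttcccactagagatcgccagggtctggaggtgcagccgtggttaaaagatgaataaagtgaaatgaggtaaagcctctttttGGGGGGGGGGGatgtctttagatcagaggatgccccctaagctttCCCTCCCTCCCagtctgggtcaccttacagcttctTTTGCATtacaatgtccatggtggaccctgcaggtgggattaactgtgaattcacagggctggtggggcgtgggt
Zfp42, chr8:43307010-43307259 (minus strand): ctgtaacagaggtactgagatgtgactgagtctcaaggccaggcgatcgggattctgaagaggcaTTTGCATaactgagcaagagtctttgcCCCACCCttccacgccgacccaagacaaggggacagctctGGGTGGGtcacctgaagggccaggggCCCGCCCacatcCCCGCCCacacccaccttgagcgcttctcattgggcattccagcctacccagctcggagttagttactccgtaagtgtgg
The second Esrrb window lies wholly inside the Suz12 and the H3K27me3 region and holds 3 CpG dinucleotides, and the first, upstream of both, holds 6. The Klf4 window, with 32 CpG and a GC content of 74%, adjoins the transcript start, at the gene's end with the higher coordinate. It was in neither list. GGGNGGG matched in all windows except that of Tfcp2l1, at 9 positions in the first Esrrb window and 1 in the second, and in 44.8% of all 32851 promoter windows of the table. The octamer matched in Zfp42 and in both windows of Nanog, which overlap, and in 4.12% of all windows. AAGGTCA and TCAAAG matched in none of the 9 windows and in 4.08% and 13.8% of all. A match is a description of these letters and not a binding site.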

How the data were processed

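Polyadenylated RNA-seq (32 samples) enters as 13 comparison tables, and ChIP-seq as 2 region lists; single ChIP samples are not analysed here. The submitters' processing notes name TopHat, Bowtie, DESeq2 and DiffBind, with mm10 and dm3, without versions. Per the file headers the columns are those of DESeq2: baseMean is the deposited signal, a mean over libraries of size-factor-normalised reads, fold changes and their errors are the authors' log2 values, the test statistic is the authors' score (fold change over its error), and each p-value is as the authors deposited it. The region lists carry, per the file headers, a value per region from DiffBind at 5% false discovery rate, which was not used. Library sizes and tests of the authors were not refitted with their tool.

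The main result of a comparison is the authors' deposited adjusted p, with 0.05 as the threshold. Each baseMean has enough digits that the whole reads of every library could be worked back from all tables of a cell type together (99.8% of genes with reads in ESC and in NP; genes above 60000 reads in a library were left out, and no member was among them). Totals of single libraries include those genes. The fits, libraries shared by tables and numbers were read from this; in 6 ESC tables of 2 against 3 libraries ESC WT library 1 has no partner in the authors' fit. On these reads limma 3.58.1 was run as an alternative on log2(normalised reads + 1), with every library left out in turn; where this leaves 1 library in a group, it is assumed to vary like the others. Differences between comparisons were tested by z tests with standard errors added in quadrature, adjusted by Benjamini-Hochberg over genes with a mean of at least 10; shared WT libraries make them approximate. The working back of reads and limma without the replicate block were also run on simulated reads. These had the same set spread for all genes, which was not taken from the libraries. The simulation therefore does not show how limma performs on libraries as variable as these.

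Named genes were the 10 members, Suz12, 5 lists of the same pathway or state and the 5 genes nearest to the members' median profile, 1 of which is not reported here. Members and lists were chosen with earlier results of these data known. Regions were assigned within 2500 bases of a gene's ends, since the gene table gives no strand. Motifs were searched on both strands with Python 3.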

Additional observations from a re-analysis of the deposited data

Results flagged for a closer look

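The CSex4 effect, taken as the difference of log2 fold changes in ESC minus NP, differed between the cell types for 8 of the 10 genes in a z test with Benjamini-Hochberg adjustment. The differences were -5.67 for Tcl1, -4.61 for Prdm14, -4.14 for Esrrb, -3.85 for Nanog, -3.81 for Klf2, -3.48 for Zfp42, -2.43 for Tfcp2l1 and -1.80 for Tbx3.

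The KO effect against the first NP WT pair differed for Prdm14 (2.60), Nanog (2.45), Tbx3 (1.53) and Klf5 (-3.02).

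The change from KO to KO-L differed for Nanog (-4.27), Esrrb (-3.74), Klf2 (-2.76), Zfp42 (-2.50), Tfcp2l1 (-1.85) and Klf5 (2.05), and the change from KO to KO-S for Klf5 (2.28) and Tfcp2l1 (1.55).

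Klf5 in NP WT library 1, at 22.4 RPM, stood apart from the other 3 NP WT libraries by Dixon's criterion. It was the only 1 of the 10 genes to do so in the 4 NP WT libraries, the only group tested, since groups of 3 or fewer were not, and chance gives about 1 in 20 for each of the 10 genes.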

How the results depend on the processing

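Of the counts of called genes, 128 of 153 under alternatives that keep all libraries were within 1.5 times the reported count, and 55 of 114 with 1 library left out; the cause of the others was not tested. At adjusted p under 0.01 the count was 2 in ESC CSex4, 1 in KO-S3D, 2 for the KO difference between cell types and 0 for KO-L3D minus KO-L. With standard errors multiplied by the robust SD of the statistic over all genes (0.557 to 2.42), it was 4 in ESC CSex4, 1 in KO-L3D, 1 in KO-S3D, 0 in NP KO, 4 in NP KO-L, 1 in NP KO-S and 3 in NP WT vs KO, and 0, 1, 0 and 0 for the differences of KO, KO-L, KO-S and KO-L3D minus KO-L. By limma without a replicate block it was 3 in ESC CSex4, 4 in NP CSex4, 5 in NP KO-L and 3 in NP KO-S, and 2, 1 and 6 for the differences of KO, KO-S and KO-L3D minus KO-L.

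Limma with the replicate block called 0 in ESC CSex4, KO-S3D and NP CSex4. The pairing in the authors' fits was worked out from their standard errors; deviations of paired libraries correlated at -0.50 to 0.34 over the comparisons, and at -0.26 to 0.10 over the 3 pairs of ESC KO, which does not show that the numbers pair the samples. With crossed pairing limma called 0 in ESC Deltaex4 and 9 in NP WT vs KO.

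With each library left out in turn, limma called 0 to 4 in ESC CSex4, 2 to 4 in ESC KO, 0 to 4 in KO-S, 1 to 7 in KO-L3D, 1 to 2 in KO-S3D, 0 to 8 in NP CSex4, 3 to 4 in NP KO, 2 to 8 in NP KO-L, 0 to 2 in NP KO-S, 4 to 9 in NP WT vs KO, and 4 to 8, 1 to 4, 3 to 9, 1 to 2 and 0 to 7 for the differences of CSex4, KO, KO-L, KO-S and KO-L3D minus KO-L. With the second NP WT pair the KO difference reversed for Esrrb (-1.34), Klf2 (-2.15) and Zfp42 (-1.27). Among single genes, 1350 of 1485 values kept direction and side of the threshold with all libraries and 244 of 460 with 1 left out.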
